A study of Homo sapiens with 9 samples.

Results

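Metallothioneins are small, cysteine-rich proteins that bind zinc and copper and also take up toxic metals such as cadmium and silver. Their genes lie side by side on chromosome 16. They are switched on by metal ions through MTF1, a zinc-sensing transcription factor that binds short promoter sequences called metal response elements. MT2A and the MT1 genes are used by many tissues, MT3 is known mainly from the brain and MT4 from stratified epithelia. The members here were the probe sets whose gene symbol was MT1E, MT1F, MT1G, MT1X, MT2A, MT3 or MT4. Each of the 7 genes had 1 probe set, out of 14884 genes with a named probe set on the array, and all 7 were among the 12155 genes tested.

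The cells were EA.hy926, an established human line made by fusing umbilical vein endothelial cells with the A549 lung carcinoma line. The control group was 3 arrays of unexposed cells. The other groups were 3 arrays of cells exposed for 6 h to silver nanoparticles of 5 nm and 3 arrays of cells exposed for 6 h to silver nanoparticles of 100 nm, each at about the LD50. No mass dose is stated in the sources used here, so particle size and dose cannot be told apart. All groups are of 1 cell line. No label says that the arrays of a group came from separate cultures, and the p-values therefore reflect the spread between arrays, which may be technical.

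Values are log2 intensities made with RMA, a method that corrects background, equalizes the distributions of arrays processed together and summarizes the probes of a gene. Array medians were 5.62 to 5.64 in replicate number 1, 5.15 to 5.18 in number 2 and 5.38 to 5.41 in number 3. The sorted values of 2 arrays differed by a mean of 0.0044 to 0.023 within a number (9 pairs) and of 0.19 to 0.46 between numbers (27 pairs), so the 9 distributions were not equalized together. Whether RMA was run once per replicate number is not stated in the labels, and what this does to exactly equal values, such as those of MT2A and MT3, was not tested. The highest value on an array was 14.08 to 14.32. Arrays of the same replicate number shared exactly equal values for 46.9% to 57.6% of probe sets, against at most 0.00373% between arrays of different numbers, so differences were taken within each replicate number. Of 11 endothelial markers with a named probe set, 10 were at or above a log2 intensity of 5 on every array in each group. PECAM1 had a control mean of 9.95 and VWF one of 5.98. The summed linear intensity of the 11 was 15053 to 19082 in controls, 12256 to 17572 with 5 nm particles and 15082 to 19100 with 100 nm particles. Of 8 epithelial markers, the A549 side of the hybrid, 7 were at or above 5 on every array in each group. The sums of the 8 were 2169 to 4116, 1855 to 3817 and 2048 to 4219 in the same order. On each array 10764 to 11944 of 14884 genes reached 5, so a value of 5 is common. The part of these marker levels in the results was not tested. In bulk RNA, fewer responding cells and less RNA per cell cannot be told apart.

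The promoters of MT1X, MT2A and MT4 were in the RefSeq promoter table and are shown because they are the members whose promoters could be set beside their array values, with MT1X and MT2A the brightest members. Capitals mark matches to the core of the metal response element, searched as TGCACNC and TGCGCNC on both strands with no overlap between matches. All 3 run from 250 bases before to 50 bases after the gene start, 5′ to 3′ on the plus strand of GRCh38.p14. They lie at chr16:56682220-56682519 for MT1X, chr16:56608334-56608633 for MT2A and chr16:56564823-56565122 for MT4.
MT1X: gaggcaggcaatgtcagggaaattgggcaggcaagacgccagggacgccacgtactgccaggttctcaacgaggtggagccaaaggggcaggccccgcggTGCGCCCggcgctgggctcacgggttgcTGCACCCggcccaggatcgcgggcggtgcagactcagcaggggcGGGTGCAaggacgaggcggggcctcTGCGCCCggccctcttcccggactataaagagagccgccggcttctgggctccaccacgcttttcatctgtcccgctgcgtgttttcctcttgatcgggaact
MT2A: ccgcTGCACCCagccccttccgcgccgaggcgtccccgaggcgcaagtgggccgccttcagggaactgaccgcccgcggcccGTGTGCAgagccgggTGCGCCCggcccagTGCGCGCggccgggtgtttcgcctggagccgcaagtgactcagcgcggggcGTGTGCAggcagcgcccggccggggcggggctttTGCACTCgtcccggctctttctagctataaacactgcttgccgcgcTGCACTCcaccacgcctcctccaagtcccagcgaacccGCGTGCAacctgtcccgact
MT4: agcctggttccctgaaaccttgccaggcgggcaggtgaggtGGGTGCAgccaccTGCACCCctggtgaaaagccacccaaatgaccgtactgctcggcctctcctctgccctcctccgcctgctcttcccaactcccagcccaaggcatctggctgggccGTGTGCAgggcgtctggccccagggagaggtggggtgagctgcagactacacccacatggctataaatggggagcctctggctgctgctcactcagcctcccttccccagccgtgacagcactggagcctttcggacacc
MT2A had 8 matches, MT1X had 4 and MT4 had 3. Of 35116 promoters of the same length, 29.6% held at least 1 match, 1.63% held at least 3, 0.339% held at least 4 and 0.0171% held at least 8. MT1H, a further family member, also had 8 and MT1B had 3. MT2A, with the most matches of the 3, had a mean 5 nm difference of -0.13, against 1.15 for MT1X and 0.17 for MT4. The promoters of MT1G, MT1E, MT1F and MT3 were not in the promoter table. A relation between matches and differences was therefore not tested. A match describes the letters in this window and is not a measured binding site.

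**Figure D1:**
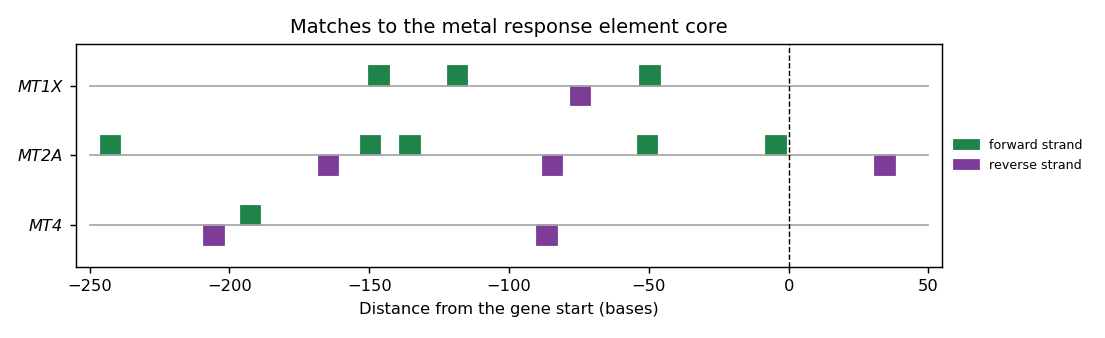
Each row is 1 promoter, the horizontal axis gives the distance from the gene start in bases, and boxes above or below the line are matches on the forward or reverse strand. MT2A carries 8 matches, MT1X 4 and MT4 3.

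In unexposed cells the members ranged from intensities below the array's middle to among its brightest probe sets. MT1X, a broadly used MT1 gene, had the highest control mean, 11.61 ± 0.41 (SD, n = 3), and MT2A followed at 10.84 ± 0.16 (SD, n = 3). MT4 (7.13 ± 0.32), MT1E (7.13 ± 0.22) and MT1F (6.64 ± 0.44, SD, n = 3 each) lay in the middle. MT3 (5.75 ± 0.21) and MT1G (4.72 ± 0.61, SD, n = 3 each) were lowest. In this order the control arrays of MT4 overlapped those of MT1E, and those of MT1E overlapped those of MT1F, while the other neighbours in the order did not overlap. These are intensities of different probe sets, so their order is not an order of RNA amounts. On the control arrays 635 to 799 of 53617 probe sets were brighter than MT1X, whereas 31725 to 38235 were brighter than MT1G.

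**Figure D2:**
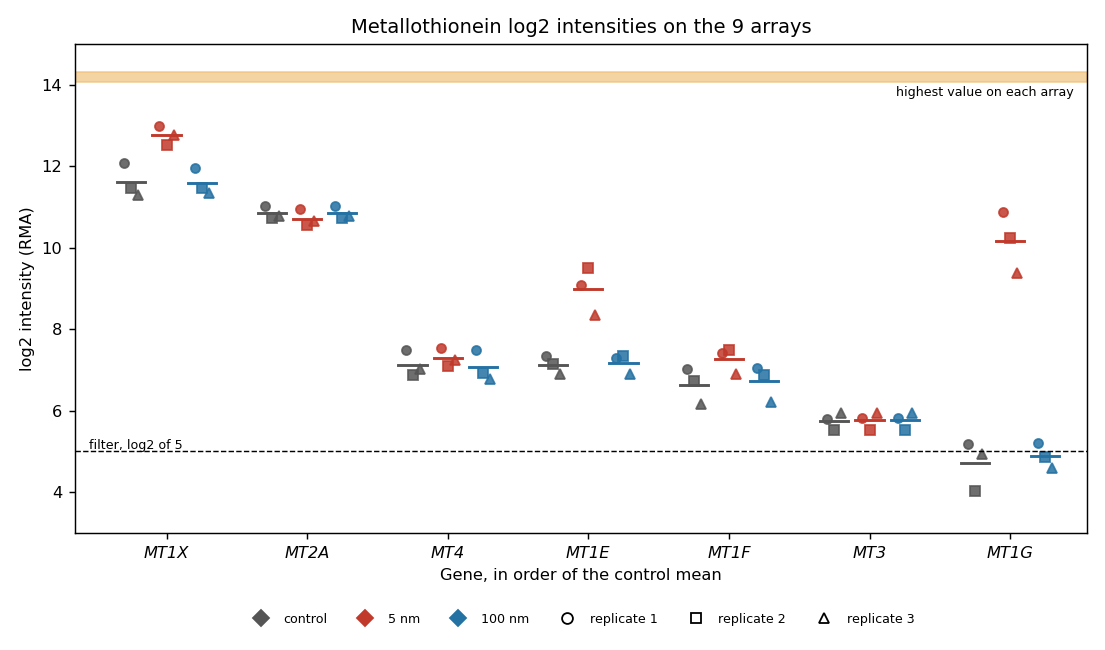
Each point is the log2 intensity of 1 gene on 1 array, coloured by group with the shape giving the replicate number, and short lines are group means of 3 arrays. MT1G, MT1E and MT1X have all 3 points of the 5 nm group above all control points, and MT1G starts at the dashed filter line.

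With 5 nm particles MT1G rose. MT1E, MT1X and MT1F were higher in every replicate number without passing the test, and MT2A, MT3 and MT4 stayed within 0.25 of the control on the log2 scale in every replicate number. In the limma fit over all 12155 genes, 1 of 7 members passed at a Benjamini-Hochberg adjusted p under 0.05, against a background of 0.0740% of tested genes called higher. With the replicate number as a block 1 of 7 passed as well, against 0.296% called higher and 0.650% called in either direction. The number of genes called was 9, all higher, and 79 with the block, 36 of them higher. The median difference was 0.64 over the members and 0 over all genes tested. Counts over members include MT1G, which entered the test through its 5 nm arrays, and the members were chosen with earlier results of these data known.

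MT1G had log2 intensities of 5.18, 4.03 and 4.95 on control arrays 1, 2 and 3, and of 10.88, 10.23 and 9.38 on the 5 nm arrays in the same order. The groups were far apart, and the 5 nm arrays placed MT1G among the brightest 1707 to 3078 probe sets. The gene reached 5 on 1 of 3 control arrays, so its control level lies around the value of 5 used as the lower limit for testing. Within replicate numbers MT1G was higher by 5.70, 6.20 and 4.43, a mean of 5.44 (SD 0.91). The limma fit without the replicate block, which does not use this pairing, gave a standard error of 0.40 and an adjusted p of 0.00069. The MT1G difference was the largest of all 12155 genes in each of the 3 numbers. The numbers were not alike over all tested genes. In replicate 2, 201 genes were higher by 1 or more and 143 lower by 1 or more. These counts were 63 and 1 in replicate 1 and 43 and 2 in replicate 3. Raising values under 5 to 5, an alternative chosen after the data were seen, reduced the mean from 43.5-fold to 34.3-fold, with differences of 5.70, 5.23 and 4.38 that again ranked 1 in each number.

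With the replicate block on all 9 arrays MT1G kept its call (adjusted p = 0.0285 in limma). A block fit restricted to the control and 5 nm arrays did not keep the call (adjusted p = 0.548 in limma), and 0% of genes passed there. Every member, MT3 included, had this same adjusted p, so that fit cannot tell MT1G from the other members. With the block it was also lost without any 1 of the 3 control arrays (adjusted p = 0.194, 0.138 and 0.103 without replicates 1, 2 and 3), without the 5 nm array of replicate 1 (0.0616) and without any 1 of the 100 nm arrays (0.12, 0.112 and 0.131). In the settings that lost the call the difference was 5.09 to 5.83. Without the block it was kept in 17 of 17 alternatives.

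MT1E, another MT1 gene, with a moderate control intensity, had values of 7.34, 7.14 and 6.90 on control arrays and 9.09, 9.49 and 8.34 on 5 nm arrays. The lowest 5 nm array lay above the highest control array. The differences within numbers were 1.76, 2.35 and 1.44, a mean of 1.85 (95% interval 1.19 to 2.50, or 1.35 to 2.35 with the replicate block, 3.60-fold). In limma the adjusted p was 0.0666, and 0.0501 with the replicate block, so MT1E missed the threshold narrowly in both fits. Its differences ranked 15th, 25th and 23rd among the 12155 genes. It passed without the 5 nm array of replicate 3 (adjusted p = 0.0200 in limma), the array with its smallest difference, where 2 of 7 members passed against 0.123% of genes called higher. With the block it passed without the 5 nm array of replicate 2, its largest difference (adjusted p = 0.0280 in limma). It also passed there without that of replicate 3 (0.0287). In these 2 block settings 326 and 446 of 12155 genes were called. Over 28 alternatives its adjusted p ranged from 0.0200 to 0.548 in limma. The upper value is from the block fit of only the 2 groups compared, where 0% of genes passed.

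MT1X had 12.07, 11.47 and 11.29 on control arrays and 12.99, 12.52 and 12.76 on 5 nm arrays. These groups did not overlap either. The differences were 0.92, 1.05 and 1.47, a mean of 1.15 (95% interval 0.55 to 1.74, or 0.84 to 1.46 with the replicate block, 2.21-fold), with an adjusted p of 0.491 in limma and 0.0509 with the replicate block. With quantile normalization over the 9 arrays MT1X passed (adjusted p = 0.0249 in limma), as did MT1E (0.0492) and MT1G (0.000148), so that 3 of 7 members were called against 0.159% of genes called higher. With the filter raised to 6, which left out MT3, MT1G and MT1E passed, against 0.161%. Over 28 alternatives the adjusted p of MT1X ranged from 0.0158 to 1 in limma. On the 5 nm arrays 187 to 312 probe sets were brighter than MT1X and its value lay 1.34 to 1.70 below the highest on the array. Bright probe sets can understate a change, and the part of this limit in the size of the MT1X difference was not tested.

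MT1F had 7.03, 6.72 and 6.15 on control arrays and 7.41, 7.50 and 6.91 on 5 nm arrays. The groups overlapped, because the 5 nm array of replicate 3 lay below the control array of replicate 1, while each 5 nm array was above the control of its own number. The differences were 0.38, 0.78 and 0.75, a mean of 0.64 (1.55-fold). The 95% interval was -0.04 to 1.31 without the block and 0.40 to 0.88 with it, and the adjusted p was 1 in limma and 0.083 with the replicate block. With the block and without the 5 nm array of replicate 1, MT1F passed as higher (adjusted p = 0.0259 in limma, against 0.420% of genes called higher). In replicate 2 the 99th percentile of all tested genes was 1.27, which MT1X and MT1F did not reach, and in replicate 3 it was 0.64, which both exceeded. In replicate 1 it was 0.67, which MT1X exceeded and MT1F did not.

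MT2A, the most widely expressed family member, had 11.02, 10.72 and 10.79 on control arrays and 10.95, 10.55 and 10.65 on 5 nm arrays. It was slightly lower in every number, by -0.074, -0.17 and -0.14, a mean of -0.13 (95% interval -0.58 to 0.33). The adjusted p was 1 in limma and 0.116 with the replicate block, which narrows the interval to -0.19 to -0.069. The block fit also uses the 100 nm arrays, where MT2A was exactly equal to its control in all 3 numbers. What these ties do to the narrower interval was not tested. A negative difference in all 3 numbers was found for 13.4% of tested genes, so MT2A did not stand apart in this. With the block and without the 5 nm array of replicate 1, MT2A passed as lower (-0.16, adjusted p = 0.0375 in limma, against 0.658% of genes called lower).

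MT4 had 7.50, 6.88 and 7.03 on control arrays and 7.55, 7.11 and 7.26 on 5 nm arrays. Its differences were 0.051, 0.23 and 0.23, with a mean of 0.17, an adjusted p of 1 in limma and 0.422 with the replicate block (95% interval -0.073 to 0.41). MT3 had 5.79, 5.53 and 5.94 on control arrays and 5.81, 5.53 and 5.94 on 5 nm arrays. Its values were exactly equal in 2 of 3 numbers and differed by 0.024 in the third. Of all tested genes, 19.0% were exactly equal in all 3 numbers. MT3 and MT4 are genes of other tissues, and whether their intensities come from their own RNA or from related sequences was not tested.

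**Figure D3:**
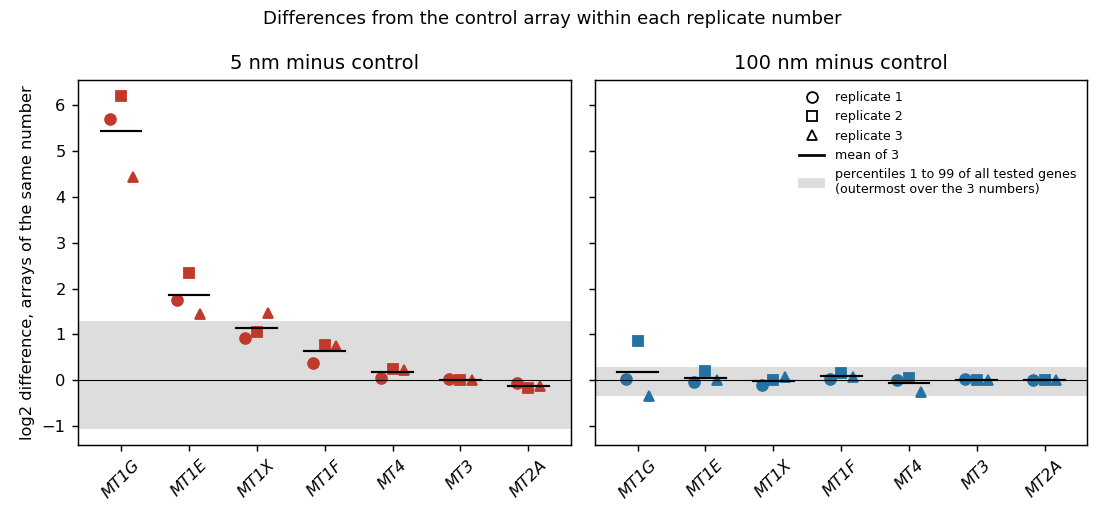
Points are log2 differences between an exposed array and the control array of the same replicate number, lines are means over 3 numbers, and grey bands span percentiles 1 to 99 of all 12155 tested genes, taking the outermost of the 3 numbers. With 5 nm particles MT1G and MT1E lie above the band in every number, while with 100 nm particles MT1G, with values around 5, is the 1 member that leaves it.

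Counts of members were set beside the same counts over all genes. The members were chosen with earlier results of these data known, and MT1G, counted here, entered the test through its 5 nm arrays. These counts are therefore a description. In the 5 nm comparison 3 of 7 members had all 5 nm arrays above all control arrays, against a background of 1.41%, and 0 of 7 had them below, against 0.469%. A positive difference in all 3 numbers was found for 5 of 7, against 8.03%, and a difference of at least 1 in all 3 numbers for 2 of 7, MT1G and MT1E, against 0.222%. The 2 MT1 genes with the smallest mean differences, MT1F and MT1X, had their smallest difference in replicate 1, whereas MT1G and MT1E had theirs in replicate 3.

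The differences of the members from each other were measured against MT2A within each number. MT1G exceeded MT2A by 5.77, 6.37 and 4.57, MT1E by 1.83, 2.52 and 1.58, MT1X by 0.99, 1.23 and 1.61 and MT1F by 0.46, 0.95 and 0.89 on the log2 scale. The 5 nm differences thus fell in the order MT1G, MT1E, MT1X and MT1F by their means. MT1G was the largest and MT1E second in replicates 1 and 2, and in replicate 3 MT1X was above MT1E. MT4 exceeded MT2A by 0.13, 0.41 and 0.37 and MT3 by 0.099, 0.17 and 0.14, where MT2A itself was slightly lower than its control. An exact two-sided sign-flip permutation test over 3 numbers gave p = 0.25 for each of the 6 members, the smallest value that 3 numbers allow. Any 3 differences of 1 sign give this value, so the test cannot separate the members.

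With 100 nm particles the mean differences of the members from their controls lay between -0.066 (MT4) and 0.18 (MT1G). None of 7 passed in limma, with or without the replicate block, where the background was 0% of genes called and, at an unadjusted p under 0.05, 0 of 12155 genes without the block and 33 (0.271%) with it. MT2A was exactly equal to its control in all 3 numbers, as were 30.3% of tested genes. MT1E had 7.30, 7.34 and 6.90 on the 100 nm arrays and MT1X had 11.96, 11.47 and 11.35, close to their controls. Differences within numbers were -0.037, 0.19 and 0 for MT1E and -0.11, 0.007 and 0.06 for MT1X. The mean differences with 95% intervals were 0.052 (-0.60 to 0.71) for MT1E and -0.015 (-0.61 to 0.58) for MT1X.

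MT1F was the 1 member with positive differences in all 3 numbers, 0.025, 0.16 and 0.069, against 1.25% of tested genes. Their mean was 0.086 (95% interval -0.59 to 0.76, or -0.16 to 0.33 with the replicate block). MT1G had 5.21, 4.88 and 4.60 on the 100 nm arrays, and its differences of 0.031, 0.85 and -0.35 lay on both sides of 0, with values around 5. The 95% interval of its mean of 0.18 was wide, -0.71 to 1.07, or -0.82 to 1.17 with the replicate block. MT3 had 5.81, 5.53 and 5.94, with differences of 0.024, 0 and 0. MT4 had 7.50, 6.93 and 6.78, with differences of 0, 0.051 and -0.25. MT1G, the member that passed with 5 nm particles, therefore had overlapping 100 nm and control arrays.

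The 5 nm and 100 nm arrays were then compared directly, a comparison that uses the same 5 nm arrays as the first. MT1G passed (5.27, adjusted p = 0.000956 in limma, and 0.0314 with the replicate block), against 0.0658% of genes called higher and, with the block, 0.288% called higher and 0.617% in either direction. Its differences within numbers were 5.66, 5.35 and 4.78, ranking 1, 2 and 1 of 12155 genes. MT1G entered this test through its 5 nm arrays, and its 100 nm values lay around 5. With values under 5 raised to 5 its mean difference was 5.09. MT1E differed by 1.79, 2.16 and 1.44 (adjusted p = 0.0846 in limma), MT1X by 1.03, 1.05 and 1.41 (0.426) and MT1F by 0.36, 0.61 and 0.68 (1). The first 3 of these 4 genes had no overlap between the groups, as did 1.37% of tested genes in the same direction. MT2A differed by -0.13 on average, as from the control. MT3 was equal in all 3 numbers, and MT4 differed by 0.051, 0.18 and 0.48. The MT1G call was lost in a block fit restricted to the 5 nm and 100 nm arrays (adjusted p = 0.366 in limma), where 0% of genes passed. With the block on all groups it was lost without any 1 control array (0.128, 0.0851 and 0.08 without replicates 1, 2 and 3). It was also lost there without the 5 nm array of replicate 1 (0.0668) and without any 1 of the 100 nm arrays (0.202, 0.183 and 0.212). MT1E passed when the 5 nm array of replicate 3 was left out (adjusted p = 0.0209 in limma), where 2 of 7 members were called against 0.156% of genes. With the block it passed without the 5 nm array of replicate 2 (adjusted p = 0.0292 in limma) or of replicate 3 (0.0297). In these block settings 330 and 449 of 12155 genes were called. With the block and without the 5 nm array of replicate 1, MT1F passed as higher (adjusted p = 0.0309 in limma, against 0.395%) and MT2A as lower (0.0369, against 0.683%). With quantile normalization 2 of 7 were called, against 0.142%.

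The order of genes along chromosome 16 gave a further view. In the RefSeq annotation MT4, MT3 and MT2A come first, followed by MT1E, MT1F, MT1G and MT1X, with 9 other metallothionein genes and pseudogenes among them. The 3 members at the MT4 end were the ones without a difference over 0.25 in any number, and the 4 members from MT1E onward were higher by 0.38 or more in each number. Just beyond the cluster, BBS2, a ciliary protein gene and the nearest tested one before MT4, differed by -0.046, -0.18 and 0, and NUP93, a nuclear pore gene and the nearest tested one after MT1X, by -0.12, -0.34 and -0.057. These neighbours were chosen after the member values were seen. Across 3 named tested genes on each side, the mean 5 nm differences were -0.17 to 0.

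Among 13 other metallothionein genes and pseudogenes listed, 4 had a named probe set, and none reached 5 on 3 arrays, so none was tested. MT1B had 3.97, 4.26 and 4.40 on control arrays and 5.50, 4.96 and 4.40 on 5 nm arrays. It was higher in replicates 1 and 2 and equal in replicate 3, around and below the filter. MT1M, MT1H and MT1L were at 3.14 to 5.09 on all 9 arrays, with differences of both signs or of 0. With sequences as alike as those of the MT1 genes, a probe set can also pick up RNA of a neighbour, and how much was not tested because probe and transcript sequences were not used here.

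**Figure D4:**
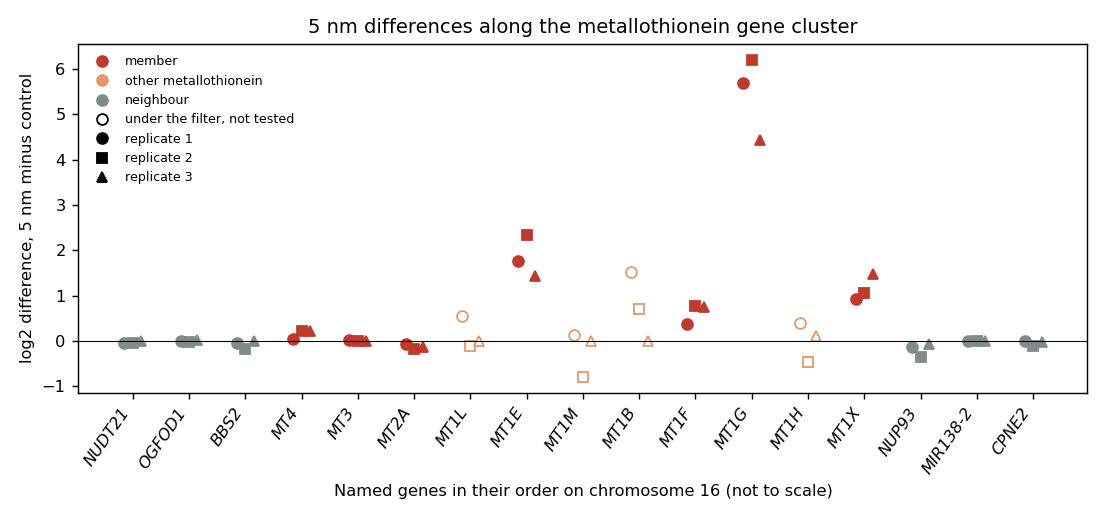
The vertical axis is the log2 difference of 5 nm minus control arrays within each replicate number, and genes are placed in their order on chromosome 16, not to scale. The rise lies at MT1G, with smaller positive differences at MT1E, MT1F and MT1X, and the 3 neighbours on each side stay between -0.34 and 0.022. MT1B, under the filter and not tested, was higher by 1.52 and 0.70 in replicates 1 and 2 and equal in replicate 3.

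No other gene tested from the metal handling lists passed with 5 nm particles. Many listed genes had no named probe set or stayed under the filter, so nothing is known of them here. MTF1, the transcription factor that senses metal, was the 1 of 25 listed zinc sensing and transport genes with a named probe set. It had a control mean of 9.09 ± 0.34 (SD, n = 3) and 5 nm differences of 0.13, 0.37 and 0.18, with an adjusted p of 1 in limma and 0.262 with the replicate block. With 100 nm particles its differences were 0, -0.021 and 0.085. Of 18 listed copper handling genes 9 were tested. Of these, 2 had positive and 6 negative differences and none passed, with a median of -0.06 beside 0 for all genes. COX11 (-0.11, -0.13 and -0.34) and SCO1 (-0.054, -0.31 and 0), both of copper delivery to cytochrome oxidase, differed most.

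Of 15 listed iron genes 6 were tested, and FTH1, FTL and TFRC had no named probe set. Of the 6, 2 were positive and 4 negative and none passed, with a median of -0.081. FBXL5, an iron-sensing ubiquitin ligase subunit, differed by -0.28, -0.91 and -0.15, and HFE, a regulator of iron uptake, by -0.26, -0.37 and -0.013. Of 8 listed genes of glutathione and thiol supply 3 were tested, and GCLC, GCLM and SLC7A11 had no named probe set. Of the 3, 1 was positive and 2 negative and none passed, with a median of -0.03. GLRX, a glutaredoxin, differed by 0.61, 0.56 and 0.17, and GSS, glutathione synthetase, by -0.07, -0.047 and -0.12. None of these tested genes passed in the fit with the replicate block either. With the block and without the 5 nm array of replicate 3, 1 gene of each of the copper, iron and glutathione lists passed, while 446 of 12155 genes (3.67%) were called in that setting.

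The genes most like the members were found by the root mean square difference of values centred within each replicate number, over 9 arrays. For MT1G they were HMOX1, the inducible heme oxygenase (0.90), LINC00622, a noncoding RNA (1.03), and IL11, a cytokine (1.03), with mean 5 nm differences of 3.61, 3.54 and 3.21. For MT1E they were BAG3, a co-chaperone (0.12), INSIG1, a brake on sterol synthesis (0.15), and HSPA1B, an inducible HSP70 (0.15), and BAG3 differed by 1.49, 2.32 and 1.69. For MT1X they were STATH, FBXO30 and MIR7-3HG, each at 0.12, and for MT1F NXT2 (0.042), NAMPT (0.057) and KITLG (0.067). Members were left out of this search.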

How the data were processed

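Biotin-labelled cDNA from total RNA was hybridized to 9 Affymetrix whole-transcript arrays, per the labels' protocols. The authors deposited log2 intensities of 53617 probe sets. The submitters' processing notes name RMA and Affymetrix Expression Console 1.3.1 and no genome build. The platform annotation paired 16098 probe sets with 1 gene symbol, matched through Entrez identifiers, 0 with several and 37519 with none. Where a gene had several probe sets, the one of highest mean was taken. A gene was tested if it reached a log2 value of 5 on at least 3 arrays. Group means of all 9 arrays were fitted with lmFit and eBayes of limma 3.58.1 under R 4.3.3, and p-values were adjusted over all 12155 genes by the Benjamini-Hochberg method. The fitting steps were tested on simulated data with independent noise. That simulation held no replicate numbers and no equal values, so it does not test the fit for the pairing seen here.

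The replicate numbers pair the arrays. For 9 same-number pairs the correlation of their deviations from the group mean was 0.762 to 0.967, and for 18 pairs of unlike number -0.582 to -0.265. Deviations from a group mean sum to 0, so high values for same-number pairs force negative ones for the others. The negative values are therefore not a separate result. The number of arrays limits the precision. Alternatives were the block, filters, 2 scalings, the mean of probe sets, other variance priors, left-out arrays and, added after the data were seen, values raised to 5. Named genes were the members, other metallothioneins, the 2 largest differences of each metal gene list, the 3 genes nearest to each of 4 MT1 members, and neighbours on the chromosome chosen afterwards. The members and lists were chosen with earlier results of these data known. Promoter sequences and gene order come from RefSeq (GRCh38.p14), whose promoter table held 3 of 7 members; MT1E, MT1F, MT1G and MT3 were not matched.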

Additional observations from a re-analysis of the deposited data

How the results depend on the processing

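Over 28 alternatives, 17 without and 11 with the replicate block, the 5 nm differences of 6 members kept their sign. MT3 did not: its difference became -0.0096 with equal array medians and -0.0083 with quantile normalization over the 9 arrays, and -0.10 to 0.12 with 1 array left out. The 1 member called higher against the control became 2 with the filter at 6, 3 with quantile normalization, 0 with the replicate block on only the 2 groups compared, 1 to 2 with 1 array left out, and 0 to 3 with the replicate block and 1 array left out. Against the 100 nm arrays the same settings gave 2, 2, 0, 1 to 2 and 0 to 3. In the 100 nm comparison no member was called in any of the 28 alternatives, and with 1 array left out, without the block, the differences crossed 0, at -0.0614 to 0.19 for MT1E, -0.15 to 0.34 for MT1F, -0.1683 to 0.4072 for MT1G, -0.20 to 0.22 for MT1X, -0.10 to 0.12 for MT3 and -0.28 to 0.12 for MT4. With the replicate block the sign turned for MT1E (-0.11 without control replicate 2, -0.0236 without 100 nm replicate 3), MT1G (-0.18 without control replicate 2), MT1X (0.067 and 0.0036 without control replicates 1 and 2, 0.0289 without 100 nm replicate 3) and MT4 (0.0397 without 100 nm replicate 3). MT2A there became 0.0038 with equal medians and -0.0002 with quantile normalization. Genes called against the control numbered 9, and 79 with the replicate block, 15 with the filter at 6, 4 with equal medians, 19 with quantile normalization and 2 to 446 with 1 array left out, with or without the block. Genes called against the 100 nm arrays numbered 8, and 75, 15, 4, 17 and 6 to 449 in the same settings, and 13 with the trended, robust variance prior. Leaving out replicate 2 of the control or of the 100 nm group, with the block, gave 1 gene called in the 100 nm comparison. The causes of these shifts were not tested. Intensities close to the filter limit the size given for MT1G.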
